A study of Mus musculus with 6 samples.

Results

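The genes described here are the ABC transporters (ATP-binding cassette families A to G) and the carriers of organic anions, organic cations, carnitine and bile acids of the Slco, Slc22 and Slc10 families, as measured with and without knockdown of Ero1a in mouse cells labelled Hepa1-6. They were taken by symbol from the deposited table, which held 50 such genes among 16217. Of these, 31 averaged at least 1 FPKM (reads scaled to gene length and library size) over the 6 libraries and were tested, and 19 lay under that level and are described by their reads. Symbols of the rule that are not among the rows analysed here include Slc10a1, Slc10a2, Slc51a, Slc51b, Slco1a1, Slco1b2, Slco2b1, Abcg5, Abcg8, Abcc6 and Slc22a7.

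Hepa1-6 is a mouse liver tumour line. Both groups had been infected with lentivirus in the presence of polybrene and kept under puromycin as stable lines; one carried a hairpin against Ero1a (shERO1A, libraries KD1, KD2 and KD3) and the other the control hairpin shNC (3 libraries). RNA was extracted with TRIzol and sequenced. The labels name no other hairpin, no rescue and no separate cultures, so an effect of losing Ero1a and any other difference of one line from the other cannot be told apart, and the spread behind the p-values is that of these libraries and may be technical.

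ABC proteins use ATP to move lipids, bile salts, conjugates, drugs, heme or peptides across membranes, except the ABCE and ABCF proteins, which have no membrane domain and act on ribosomes. In hepatocytes, uptake carriers on the blood side (Slc10a1 and the Slco1 genes) and export pumps on the bile side (Abcb11, Abcb4, Abcc2, Abcg5 and Abcg8) together drive bile formation, while Abcc3 and Abcc4 return conjugates to blood. Members of the same families outside the liver carry prostaglandins, thyroid hormones, carnitine and cyclic nucleotides, and several of them (Abcb1a, Abcb1b, Abcc1 and Abcg2) are known for expelling anticancer drugs.

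The libraries held between 38290505 and 39646829 recovered reads. Ero1a itself read 37.8, 39.6 and 38.4 FPKM in shNC and 15, 16 and 15.7 FPKM in shERO1A. KD3 stood apart from KD1 and KD2: over all tested genes the mean absolute log2 difference was 0.0857 between KD1 and KD2 but 0.182 and 0.166 between KD3 and these, against 0.0803 to 0.0825 among the shNC libraries. Of 14 hepatocyte markers 5 were listed, with summed levels of 121 to 128 FPKM in shNC and 102 to 105 FPKM in shERO1A; Alb, Ttr, Apoa1 and 6 others are not among the rows analysed here, Asgr1 was near 0, and of the 4 tested, Hnf4a and Trf fell. Of 12 intestinal markers 9 were listed, and their sum (503 to 505 FPKM in shNC, 481 to 512 FPKM in shERO1A) was mostly Cdh17, Krt20 and Tspan8. The intestinal markers Cdx1, Epcam and Fabp1 are not among the rows analysed here. Of the 6 tested intestinal markers, 3 fell with the knockdown (Vil1, Cdx2 and Tspan8), and the median log2 fold change over the 6 was -0.60. Of all tested genes, 8.23% fell and 9.48% rose. With defining liver genes missing from the rows analysed here, and Cdh17 at means of 222 and 228 FPKM, these values leave the identity of the cells as Hepa1-6 in doubt, and that name is used here only as the label gives it. Summed markers of immune cells (2.45 to 2.77 against 2.18 to 3.32 FPKM) and of fibroblasts (0.892 to 1.69 against 0.997 to 1.252 FPKM) were low in both groups. Those of endothelium (9.97 to 10.7 against 17.9 to 19.0 FPKM) were almost wholly Cdh5, which rose by 0.79 on the log2 scale. The part of these markers in the results was not tested.

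Among the tested transporter genes, 1 rose and 9 fell in shERO1A by limma's moderated test on log2(FPKM + 1) with Benjamini-Hochberg adjustment over all 10296 tested genes, at an adjusted p of 0.05. The gene that rose was Abcb1a, which encodes one of the P-glycoproteins, and it about doubled. Those that fell were its neighbour Abcb1b, the conjugate and nucleotide pumps Abcc3 and Abcc5, the lipid transporter Abca3, the porphyrin transporter Abcb6, the lysosomal cobalamin transporter Abcd4, the prostaglandin carriers Slco2a1 and Slco3a1, and Slc22a18. They kept between 53.3% and 80.6% of their shNC level. The called members made up 32.3% of those tested, where 17.7% of all tested genes were called. By direction, 29% of tested members were called lower, against 8.23% of all tested genes. Of the 31 tested members 1 was called higher, against 9.48% of all tested genes. The median log2 fold change was -0.11 over the tested members and 0.01 over all tested genes.

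**Figure D1:**
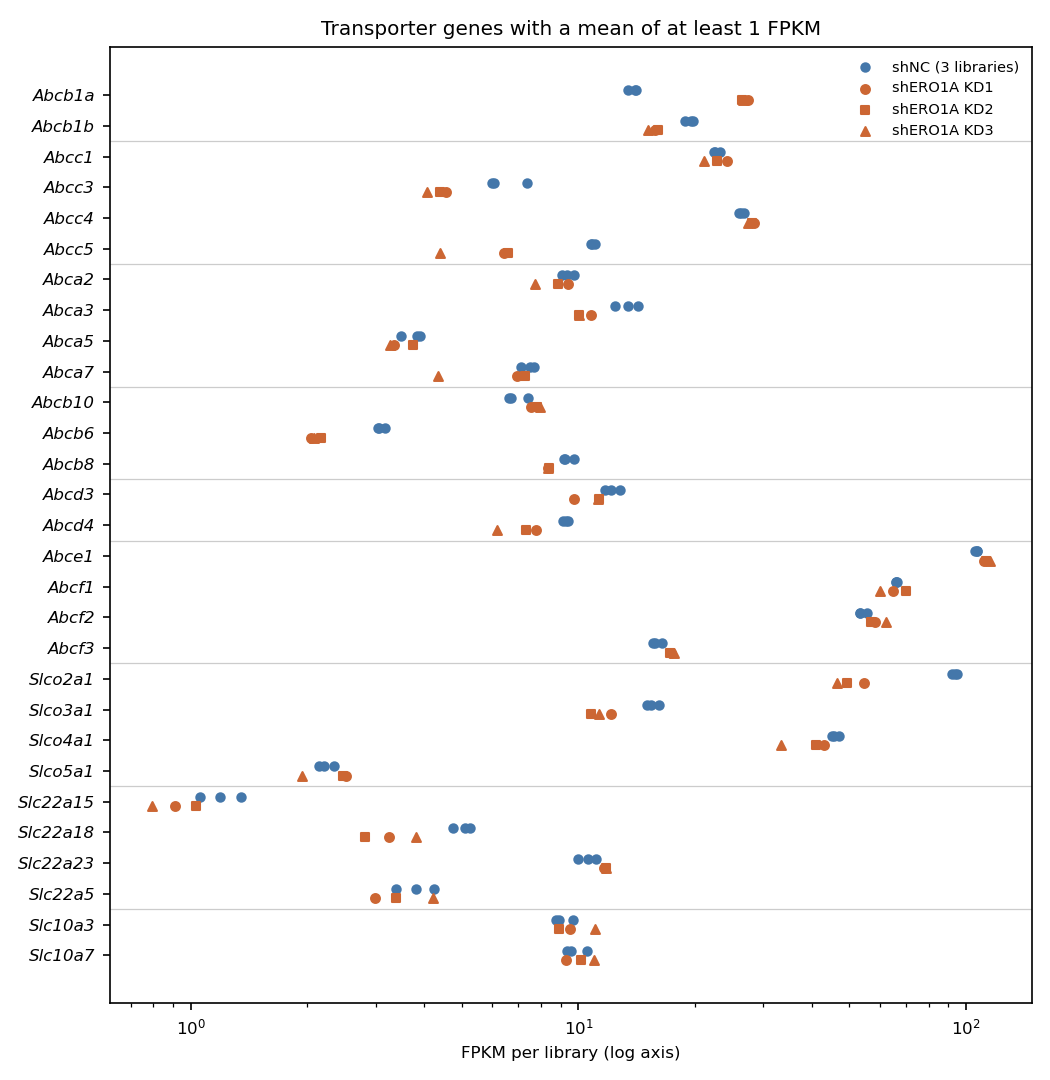
FPKM in each library (log axis) for 29 of the 31 tested transporter genes, grouped by family; blue points are the 3 shNC libraries and orange points KD1, KD2 and KD3 of shERO1A. Abcb1a lies near 13.9 FPKM in shNC and 26.8 FPKM in shERO1A, Slco2a1 falls from about 93.4 to 50.2 FPKM, and Abce1 is the highest of the genes at 106 to 115 FPKM.

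The 2 P-glycoprotein genes moved in opposite directions. P-glycoprotein is the drug efflux pump that a single gene, ABCB1, encodes in humans; mice and other rodents carry the pair Abcb1a and Abcb1b. In the RefSeq gene order on chromosome 5 they lie next to each other, in the order Rundc3b, Abcb1a, Abcb1b, Abcb4 and Crot. Abcb1a read 13.4, 14.0 and 14.1 FPKM in shNC and 27.4, 26.4 and 26.6 FPKM in KD1, KD2 and KD3. Every knockdown library was above every control library. The log2 fold change was 0.91 (SE 0.0446, limma adjusted p = 2.59e-05), a ratio of mean FPKM of 1.94. Of its annotated exon bases, 10.09% overlap a transcript on the opposite strand, Gm42686, and strand use in counting is not given. Abcb1b read 18.8, 19.8 and 19.5 FPKM in shNC and 15.7, 16 and 15.1 FPKM in the knockdown libraries. The knockdown libraries were all below the control libraries, and the log2 fold change was -0.29 (SE 0.047, limma adjusted p = 0.00463). Both calls held under all 14 alternatives.

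Both genes are given per length, so their FPKM are set side by side here. How reads that match both were counted is not given, which limits the comparison of their levels. The ratio of Abcb1a to Abcb1b was 0.713, 0.708 and 0.724 in the control libraries and 1.74, 1.65 and 1.76 in KD1, KD2 and KD3. Abcb1b was thus the higher of the pair in every shNC library and Abcb1a in every shERO1A library. The sum of both was 33.2 ± 0.882 FPKM (SD, n = 3) in shNC and 42.4 ± 0.725 FPKM (SD, n = 3) in shERO1A. Of the neighbours of the pair, Abcb4, the phosphatidylcholine floppase of the bile canaliculus, was too low to be tested. It had 95 reads over the 3 shNC libraries and 113 over the shERO1A libraries, with overlap between groups. Crot fell from 7.30 to 5.95 FPKM (limma adjusted p = 0.0452, no longer called without KD1, KD2 or any single shNC library). Rundc3b was near 1.15 and 1.001 FPKM (limma adjusted p = 0.459).

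**Figure D2:**
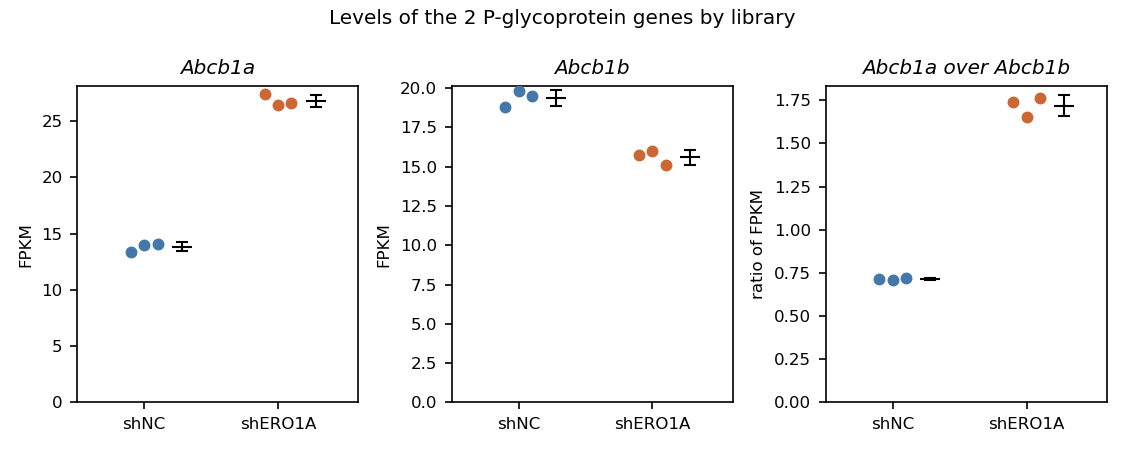
Levels of Abcb1a and Abcb1b in FPKM and the ratio of the 2 per library; points are libraries and the bars beside them the mean and SD of 3 libraries. The ratio lies between 0.708 and 0.724 in shNC and between 1.65 and 1.76 in shERO1A.

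The likeness of the pair limits how reads can be assigned to one or the other, so the sequences are shown. In the GENCODE transcripts of the GRCm38 build, the coding sequences of both genes have 3831 bases and were identical at 87.93% of 3860 aligned columns. Of all 50-base windows in the coding sequence of either gene, 20.31% were found in that of the other; the share was 9.83% for 100 bases and 5.81% for 150 bases. The longest stretch without a difference had 338 bases, coding bases 1357 to 1694 of Abcb1a and 1366 to 1703 of Abcb1b. Its last 180 bases are shown in lower case because a read inside them matches both genes, followed by the next 120 bases of each gene, in which capitals mark the 2 bases that differ. Neither the read length nor the handling of such reads is given in the sources used here.
Abcb1a and Abcb1b, end of the identical coding run: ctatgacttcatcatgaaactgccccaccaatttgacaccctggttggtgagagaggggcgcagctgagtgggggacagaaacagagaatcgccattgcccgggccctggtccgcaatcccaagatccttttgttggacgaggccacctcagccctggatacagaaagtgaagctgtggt
Abcb1a, coding bases 1695 to 1814: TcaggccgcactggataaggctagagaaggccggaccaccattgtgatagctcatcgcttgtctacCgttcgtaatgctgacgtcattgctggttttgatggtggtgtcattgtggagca
Abcb1b, coding bases 1704 to 1823: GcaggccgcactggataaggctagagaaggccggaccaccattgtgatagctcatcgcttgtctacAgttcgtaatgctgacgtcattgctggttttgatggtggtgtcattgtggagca

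Promoter windows of 300 bases (250 before the start and 50 after it, from RefSeq on GRCm38.p6, plus strand) are shown for the pair because the genes are neighbours that moved apart, and for Slco2a1 because it was the most abundant member to fall. RefSeq windows were found for 37 member genes, and the first listed start of each gene was used. A set of 6 motifs was searched on both strands: the CCAAT box, the GC box GGGCGG, the TATA box TATAAA, the phorbol ester response element TGACTCA, the E box CACGTG and the cyclic AMP response element TGACGTCA. Capitals mark every match. The Abcb1a window (chr5:8566841-8567140) held none of them and had 40.3% G and C bases. The Abcb1b window (chr5:8797897-8798196) held CCAAT on both strands and GGGCGG, with 55.0% G and C bases. The Slco2a1 window (chr9:103008237-103008536) held GGGCGG and TATAAA, with 64.0% G and C bases. Over 27025 genes with a window, CCAAT occurred in 37.92%, GGGCGG in 35.91%, TATAAA in 14.16%, TGACTCA in 5.17%, CACGTG in 7.24% and TGACGTCA in 1.88%. Among the member genes with a window, CCAAT was found in 12, GGGCGG in 21, TATAAA in 7, CACGTG in 6, TGACGTCA in 1 and TGACTCA in 0. A match describes these letters and is no evidence that a factor binds.
Abcb1a promoter: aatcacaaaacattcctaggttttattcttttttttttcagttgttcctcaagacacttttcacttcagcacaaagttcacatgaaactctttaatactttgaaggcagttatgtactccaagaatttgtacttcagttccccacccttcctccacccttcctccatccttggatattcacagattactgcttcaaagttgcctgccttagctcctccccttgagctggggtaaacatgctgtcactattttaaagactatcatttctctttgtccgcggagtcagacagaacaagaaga
Abcb1b promoter: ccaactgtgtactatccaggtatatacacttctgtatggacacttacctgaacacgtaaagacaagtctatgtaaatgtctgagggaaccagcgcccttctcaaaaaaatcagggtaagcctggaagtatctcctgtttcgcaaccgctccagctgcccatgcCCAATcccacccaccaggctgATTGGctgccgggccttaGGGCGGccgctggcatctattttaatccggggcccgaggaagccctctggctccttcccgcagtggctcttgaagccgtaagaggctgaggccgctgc
Slco2a1 promoter: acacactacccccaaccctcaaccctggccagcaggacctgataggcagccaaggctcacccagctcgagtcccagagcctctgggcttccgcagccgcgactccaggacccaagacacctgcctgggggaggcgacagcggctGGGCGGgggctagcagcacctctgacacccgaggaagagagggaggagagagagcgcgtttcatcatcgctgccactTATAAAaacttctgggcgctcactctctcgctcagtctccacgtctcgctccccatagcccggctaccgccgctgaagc

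Slco2a1 encodes the prostaglandin transporter, which takes up prostaglandin E from outside the cell ahead of its breakdown. It was the most abundant organic anion carrier in these cells, at 91.9, 94.8 and 93.4 FPKM in shNC and 54.6, 49.4 and 46.5 FPKM in KD1, KD2 and KD3. The groups were far apart. The log2 fold change was -0.89 (SE 0.061, limma adjusted p = 9.33e-05), and the mean fell to 53.7% of that in shNC. Slco3a1, a broadly expressed carrier of prostaglandins and thyroid hormone, read 15, 15.4 and 16.1 FPKM in shNC and 12.2, 10.8 and 11.3 FPKM in the knockdown libraries. It was lower in all knockdown libraries, by -0.41 on the log2 scale (SE 0.0585, limma adjusted p = 0.00262). Both calls held under all 14 alternatives.

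Slco4a1, a thyroid hormone carrier, read 45.7, 45.0 and 46.9 FPKM in shNC and 42.9, 40.9 and 33.4 FPKM in KD1, KD2 and KD3. The groups did not overlap, but KD3 lay well under the other two knockdown libraries. With all libraries the log2 fold change was -0.23 (limma adjusted p = 0.109) and did not pass. Without KD3 it was -0.13 and passed (limma adjusted p = 0.0303). Slco4a1 passed under 3 of the 14 alternatives, the others being library weights (limma adjusted p = 0.00792) and the authors' deposited q-value (0.0395). Slco5a1, a member whose substrates are little known, overlapped between groups at 2.14 to 2.34 FPKM in shNC and 1.94 to 2.51 FPKM in shERO1A. Summed over the 7 listed Slco genes, the level was 158 ± 1.93 FPKM (SD, n = 3) in shNC and 104 ± 9.29 FPKM (SD, n = 3) in shERO1A, and most of the difference was that of Slco2a1. In bulk RNA, fewer cells expressing a gene and less RNA per cell cannot be told apart, here and for each gene that follows. The listed carriers of the Slco1a group were low: Slco1a5 had a mean of 0.642 FPKM in shNC and 0.698 FPKM in shERO1A, and Slco1a6 0.124 and 0.117 FPKM.

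**Figure D3:**
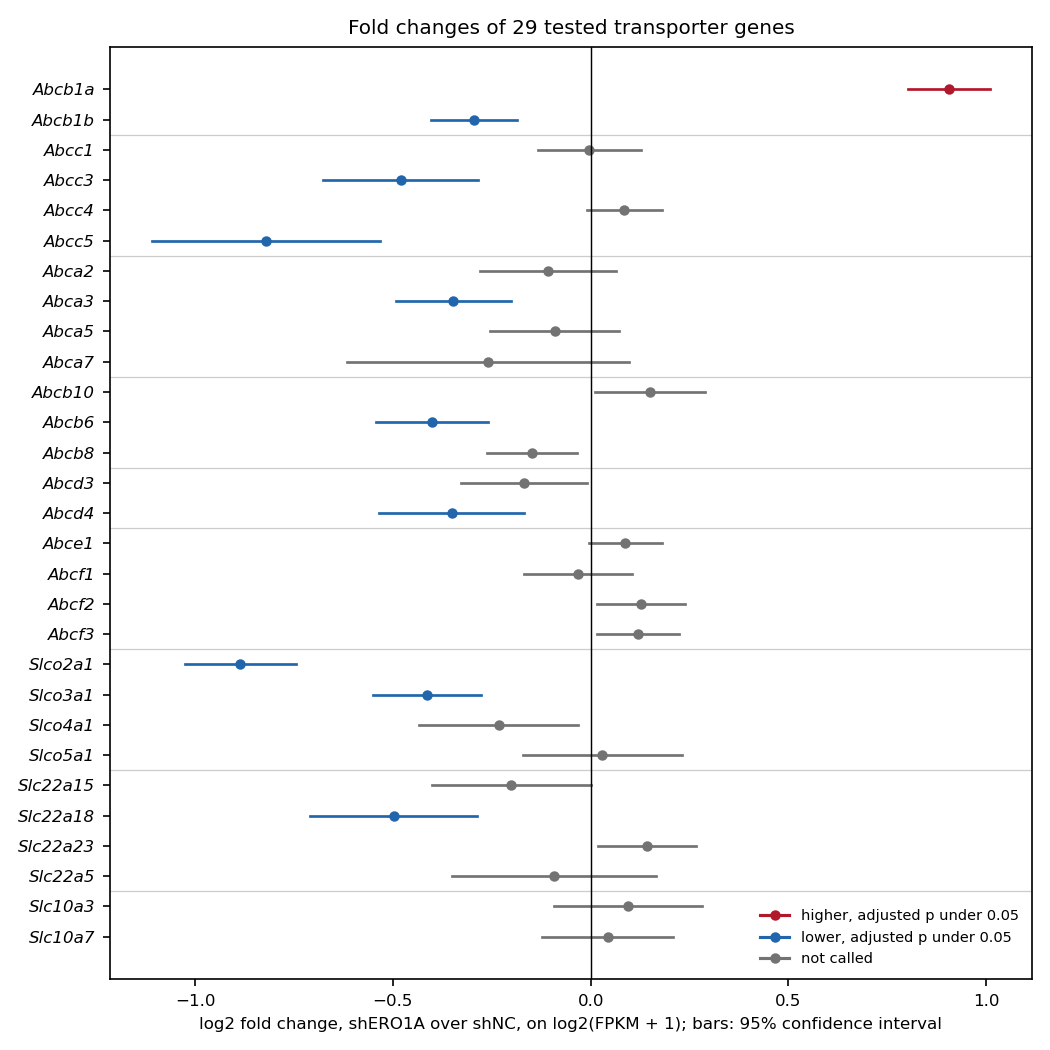
Log2 fold changes of shERO1A over shNC on log2(FPKM + 1) for 29 of the 31 tested transporter genes, with 95% confidence intervals from limma; red marks the gene called higher, blue those called lower and grey those not called. Abcb1a stands at 0.91 and Slco2a1 and Abcc5 at -0.89 and -0.82, while 19 genes are grey.

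The ABCC family holds the multidrug resistance-associated proteins, pumps for glutathione, glucuronide and sulfate conjugates. Abcc5, which exports cyclic nucleotides and nucleotide analogues, read 10.8, 11.1 and 10.8 FPKM in shNC and 6.42, 6.59 and 4.39 FPKM in KD1, KD2 and KD3. Every knockdown library was lower and KD3 was the lowest. The log2 fold change was -0.82 (SE 0.124, limma adjusted p = 0.00364) and, without KD3, -0.66 (limma adjusted p = 3.21e-05). Abcc3, the pump that returns bile acid and glucuronide conjugates to blood, read 6.07, 7.37 and 5.98 FPKM in shNC and 4.56, 4.41 and 4.06 FPKM in the knockdown libraries. The groups did not overlap although shNC replicate 2 was high, and the log2 fold change was -0.48 (SE 0.0845, limma adjusted p = 0.0072). Both calls held under all 14 alternatives.

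Other ABCC genes did not pass. Abcc1, the leukotriene and glutathione conjugate pump, read 22.6, 22.4 and 23.2 FPKM in shNC and 24.2, 22.8 and 21.1 FPKM in KD1, KD2 and KD3. The groups overlapped, and the 95% interval of the log2 fold change ran from -0.13 to 0.13. Abcc4, a pump for cyclic nucleotides, prostaglandins and bile acids, read 26.3, 26.7 and 25.9 FPKM in shNC and 28.4, 28 and 27.4 FPKM in the knockdown libraries. All knockdown libraries were higher, by a log2 fold change of 0.08 that did not pass (interval -0.01 to 0.18, limma adjusted p = 0.198). Abcc2, the canalicular conjugate pump, was under the level for testing, at 0.957, 0.754 and 0.828 FPKM in shNC and 0.729, 0.664 and 0.447 FPKM in the knockdown libraries. Abcc10 overlapped at 0.814 to 0.991 and 0.618 to 0.935 FPKM.

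Of the ABCA family, lipid transporters of the plasma membrane and of endosomes and lysosomes, 9 genes were listed and 4 tested. Abca3, which loads phospholipid into the lamellar bodies of alveolar cells in the lung, read 12.4, 13.5 and 14.2 FPKM in shNC and 10.8, 10.1 and 10.03 FPKM in KD1, KD2 and KD3. The groups did not overlap, and the log2 fold change was -0.35 (SE 0.0626, limma adjusted p = 0.00793). The call held under all 14 alternatives, though 9.75% of the annotated exon bases of Abca3 overlap a transcript on the opposite strand, D330041H03Rik, and strand use in counting is not given. Abca7, a phospholipid transporter, read 7.12, 7.69 and 7.52 FPKM in shNC and 6.93, 7.27 and 4.35 FPKM in the knockdown libraries. KD1 and KD2 lay within or beside the control range and KD3 far under it, and the change did not pass (limma adjusted p = 0.29). Abca2 and Abca5, transporters of the endosomal and lysosomal membrane, overlapped between groups at means of 9.39 against 8.66 FPKM and 3.74 against 3.45 FPKM.

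Abca1, the pump that loads cholesterol and phospholipid onto apolipoprotein A-I, had a low level and so was outside the test. It read 0.313, 0.386 and 0.311 FPKM in shNC and 0.764, 0.614 and 0.684 FPKM in KD1, KD2 and KD3, from 406 reads in shNC and 835 in shERO1A. Every knockdown library was higher, with a ratio of mean FPKM of 2.04. With no filter on low values, when 10.5% of 16217 genes were called and 5.47% were called higher, its log2 fold change was 0.34 (limma adjusted p = 0.00985). Without shNC replicate 1 or 3 in that fit it did not pass (limma adjusted p = 0.0538 and 0.0539), and without each of the other libraries the adjusted p lay between 0.0187 and 0.0338. The authors' deposited table gives a fold change of 2.03 and a q-value of 2.14e-06.

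Of the ABCB proteins of mitochondria and other organelles, Abcb6 passed. Abcb6, which has been placed in mitochondrial, lysosomal and plasma membranes and carries porphyrins, read 3.04, 3.17 and 3.07 FPKM in shNC and 2.04, 2.17 and 2.09 FPKM in KD1, KD2 and KD3. All knockdown libraries were lower, by -0.40 on the log2 scale (SE 0.0609, limma adjusted p = 0.0037), and the call held under all 14 alternatives. The value is uncertain in its source: 90.3% of the 50-base windows of its transcript also occur in Gm29253, an annotated transcript that overlaps it on the same strand. Abcb8, of the mitochondrial inner membrane and linked to iron export from mitochondria, lay lower in all knockdown libraries without passing, with means of 9.37 and 8.35 FPKM (limma adjusted p = 0.078). Abcb10, a mitochondrial protein needed for heme synthesis in red cell precursors, lay higher in all knockdown libraries without passing, at 7.57 to 7.96 FPKM against 6.63 to 7.43 FPKM (limma adjusted p = 0.128), and 10.31% of its exon bases overlap Gm45890 on the opposite strand.

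The ABCD proteins serve peroxisomes and lysosomes. Abcd4, which with its partner moves cobalamin out of the lysosome, read 9.42, 9.12 and 9.27 FPKM in shNC and 7.76, 7.33 and 6.16 FPKM in KD1, KD2 and KD3. All knockdown libraries were lower and KD3 the lowest. The log2 fold change was -0.35 (SE 0.0791, limma adjusted p = 0.0207), and the call was lost without shNC replicate 1, 2 or 3 in turn (limma adjusted p = 0.083, 0.0713 and 0.0786). Abcd3, a peroxisomal importer of branched fatty acyl groups and bile acid precursors, read 12.8, 12.1 and 11.7 FPKM in shNC and 9.74, 11.3 and 11.3 FPKM in KD1, KD2 and KD3. It lay lower in all knockdown libraries without passing (limma adjusted p = 0.137).

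The ABCE and ABCF genes, which the symbol rule takes in although their proteins are not transporters, were among the most abundant members. Abce1, which splits ribosomes after translation ends, read 107, 106 and 107 FPKM in shNC and 111, 113 and 115 FPKM in KD1, KD2 and KD3. All knockdown libraries were higher, by a log2 fold change of 0.09 that did not pass (interval -0.01 to 0.18, limma adjusted p = 0.177). Abcf1, which works with initiation factors, read 66.2, 66.1 and 66.1 FPKM in shNC and 64.7, 69.8 and 59.9 FPKM in the knockdown libraries, with overlap. Abcf2 and Abcf3, less well known relatives, lay higher in all knockdown libraries, at means of 54.0 against 59.1 FPKM and 15.9 against 17.4 FPKM (limma adjusted p = 0.115 and 0.109). Without these 4 genes, 27 members were tested, of which 1 rose and 9 fell, and the median log2 fold change was -0.16.

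The Slc22 family carries organic cations, carnitine and organic anions. Slc22a18, which lies between Cdkn1c and Phlda2 in an imprinted cluster, read 4.74, 5.10 and 5.25 FPKM in shNC and 3.24, 2.82 and 3.80 FPKM in KD1, KD2 and KD3. Each knockdown library was lower, with KD3 the highest of them. The log2 fold change was -0.50 (SE 0.0911, limma adjusted p = 0.00848), and the call held under all 14 alternatives. Slc22a5, the carnitine carrier, read 4.23, 3.39 and 3.82 FPKM in shNC and 2.99, 3.38 and 4.22 FPKM in the knockdown libraries. The groups overlapped, and 27.15% of the 50-base windows of its transcript also occur in its neighbour Slc22a21. Slc22a23, an orphan member, lay higher in all knockdown libraries at means of 10.6 against 11.7 FPKM (limma adjusted p = 0.11), and Slc22a15, a carrier of zwitterions in humans, lower at 1.20 against 0.913 FPKM (limma adjusted p = 0.158).

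The Slc10 family is named for the bile acid carriers, which are not among the rows analysed here. The listed members were Slc10a3 and Slc10a7, neither of which is known to carry bile acids. Slc10a3 read 8.77 to 9.67 FPKM in shNC and 8.91 to 11.1 FPKM in shERO1A, and Slc10a7 9.36 to 10.5 and 9.31 to 11 FPKM. Both overlapped between groups. Of the transcript windows of Slc10a3, 10.59% are shared with Ubl4a.

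**Figure D4:**
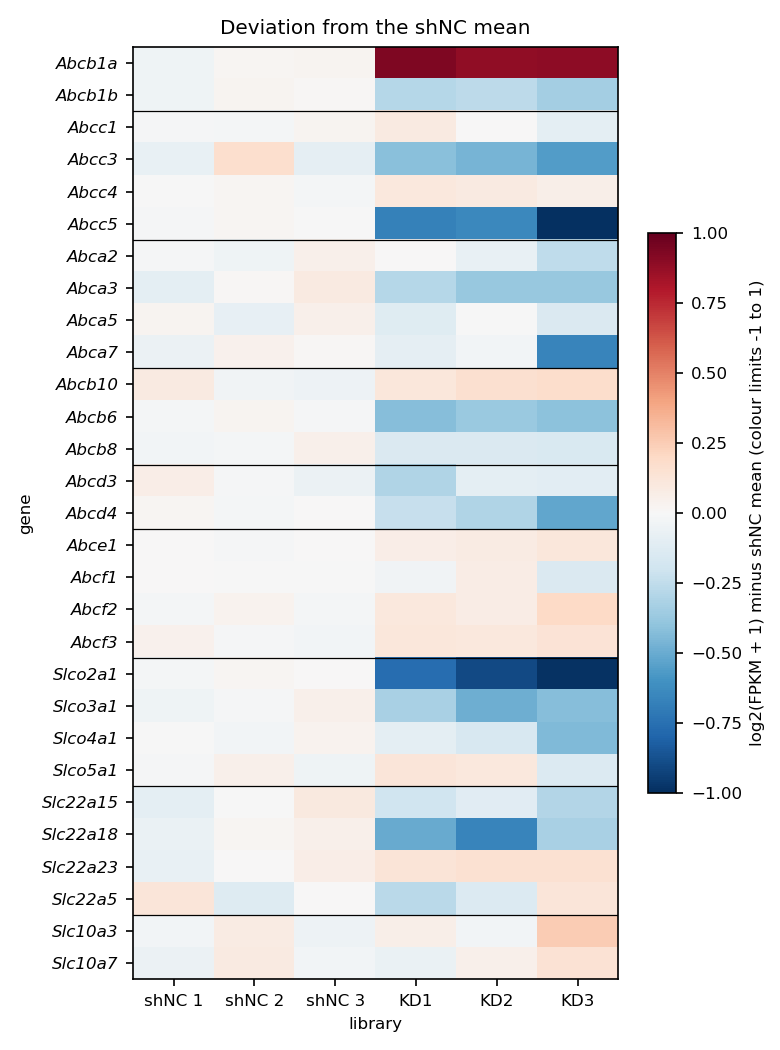
Deviation of each library from the shNC mean on the log2(FPKM + 1) scale for 29 of the 31 tested transporter genes (rows) and the 6 libraries (columns); colours run from -1 in blue to 1 in red, and values beyond these limits take the end colour. Abcb1a is red in KD1, KD2 and KD3, Slco2a1 and Abcc5 are blue in all of them, and KD3 differs from KD1 and KD2 in Abca7, Abcd4 and Slco4a1.

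Across all tested members, the groups did not overlap in 21 genes, 7 with shERO1A higher and 14 with shERO1A lower. That was 67.7% of the tested members, where 40% of all tested genes had groups that did not overlap (21.5% higher and 18.5% lower). All 10 called members were among them. The remaining 11 included Abcb10, Abcc4, Abce1, Abcf2, Abcf3 and Slc22a23 on the higher side and Abcb8, Abcd3, Slc22a15 and Slco4a1 on the lower side. The other 10 tested members overlapped.

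The distance of KD3 from the other knockdown libraries showed in the members too. Over the tested members the mean absolute log2 difference was 0.0707 between KD1 and KD2, 0.16 between KD1 and KD3, 0.143 between KD2 and KD3, and 0.0601 to 0.0742 among the shNC libraries. KD3 lay more than 0.25 on the log2 scale from the mean of KD1 and KD2 in 6 members, Abcc5, Abca7, Abcd4, Slco4a1, Slc22a18 and Slc22a5. Without KD3, 1 member rose and 10 fell, Slco4a1 being the one gained. Calls also grew over all 10296 tested genes, to 1521 higher and 1332 lower without KD3, from 976 and 847 with all libraries.

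Several pumps and carriers of the hepatocyte, and the drug pump Abcg2, had few reads in either group. Of the 19 members under 1 FPKM, 11 had a mean under 0.1 FPKM and the highest was Abcc10 at 0.858 FPKM, while the lowest tested member, Slc22a15, had 1.06 FPKM. Abcb11, the bile salt export pump, had 55 reads over the 3 shNC libraries and 40 over the shERO1A libraries. Abcg2, the breast cancer resistance protein, had 11 and 2 reads, and the sterol exporters Abcg1 and Abcg4 had 25 and 10 and 77 and 31 reads. Slc22a4, the ergothioneine carrier, had 238 and 303 reads. Abcc8, the sulfonylurea receptor, had 61 and 32 reads, with 3 in the lowest library of each group. Among these low genes, Abca1 and the lysosomal peptide transporter Abcb9 (30 against 78 reads) were higher in every shERO1A library than in any shNC library. Abca6 (159 against 84 reads) and Abcc2 (553 against 402 reads) were lower in every shERO1A library. The share of all genes at such low levels with groups apart was not taken, so these separations have no background beside them. The authors' deposited table gives q-values of 0.143 for Abcb9, 0.12 for Abca6 and 0.183 for Abcc2.

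**Figure D5:**
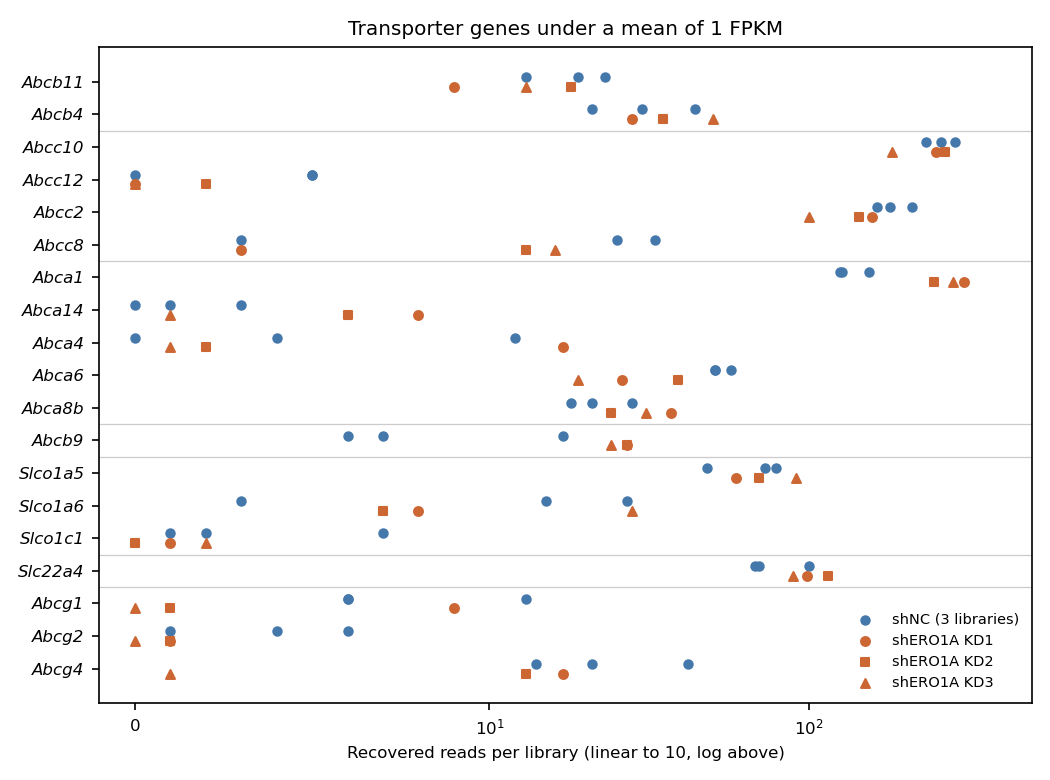
Recovered reads per library for the 19 transporter genes under a mean of 1 FPKM, on an axis that is linear to 10 reads and logarithmic above; blue points are the 3 shNC libraries and orange points KD1, KD2 and KD3. Abca1 lies higher in all 3 shERO1A libraries than in any shNC library, and Abcg2 and Slco1c1 have a handful of reads.

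Genes that work with these transporters were described from 10 lists, which together had 116 tested genes, of which 7 rose, 20 fell and the median log2 fold change was -0.02. That is 23.3% called, 6.03% higher and 17.2% lower, where 17.7% of all tested genes were called, 9.48% higher and 8.23% lower; the counts of each list below stand against the same background shares. Of these 27 calls, 14 held under all 14 alternatives, and the other 13 were lost without shNC replicate 3 (limma adjusted p from 0.0623 to 0.178), 12 of them also without another library. Among 16 regulators of transporter genes, 1 rose and 4 fell, with a median of -0.08. The bile acid receptor Nr1h4 rose from 5.66 to 7.94 FPKM, and the liver transcription factor Hnf4a fell from 41.1 to 33.2 FPKM and the sterol regulator Srebf2 from 94.0 to 77.1 FPKM, all with calls that held. Fgfr4 and Srebf1 fell by 0.49 and 0.26 on the log2 scale, with calls that were lost. Among 6 tested genes of bile acid synthesis and conjugation 1 fell, Ephx1, an epoxide hydrolase, from 110 to 56.1 FPKM, and the call held; Cyp7a1, Cyp8b1 and Cyp27a1 are not among the rows analysed here.

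Of 14 genes that supply glutathione or form its conjugates, 4 fell, with a median of -0.15, where 8.23% of all tested genes fell. Such conjugates are substrates of ABCC pumps. Gclc, the limiting enzyme of glutathione synthesis, fell from 48.0 to 28.9 FPKM and the transferase Gsta4 from 5.67 to 2.62 FPKM, both with calls that held, while Gsta1 and Gstm1 fell by 0.83 and 0.25 on the log2 scale with calls that were lost. Of 7 transporters outside the symbol rule, 1 rose and 2 fell. The folate carrier Slc46a1 rose from 3.68 to 5.86 FPKM, the sphingosine phosphate exporter Spns2 fell from 14.8 to 9.43 FPKM, and the lactate carrier Slc16a1 fell by 0.24 on the log2 scale with a call that was lost. Of 13 scaffold and partner proteins, Myo5b, a motor of apical recycling, rose by 0.35, Slc9a3r2 fell by 0.52, and Slc9a3r1 and Ezr fell by 0.20 and 0.18 with calls that were lost.

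Of 9 genes of cholesterol efflux, the sterol carrier Stard4 fell by 0.34 on the log2 scale; Npc1, the lysosomal cholesterol exporter, rose by 0.33 and Soat2 fell by 0.46, both with calls that were lost. Of 20 heme and iron-sulfur genes 1 fell, Isca1, by 0.48. Of 13 genes of peroxisomal oxidation, 1 rose and 3 fell; among them Crot and Phyh fell by 0.26 and 0.25 and Eci2 rose by 0.18 with calls that were lost. Of 13 genes of ribosome recycling 1 rose, Denr, from 33.8 to 52.6 FPKM. Of 5 genes of the carnitine shuttle 1 rose, Cpt1a, by 0.21, with a call that was lost.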

How the data were processed

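Messenger RNA was sequenced from 3 shNC and 3 shERO1A libraries of Hepa1-6 cells. The submitters' processing notes name HISAT2 2.1.0 and HTSeq 0.11.2, with mm39 as the build; no annotation, strand setting or read length is given in the sources used here. The processed data were 1 table. Its FPKM columns carry no unit in the deposited header and were identified as FPKM from their values. The table's base means are a signal that the authors made with DESeq2, per the file headers, and the authors' fold change is a ratio given beside their log2 fold change, p-value and q-value. Each shNC column matches a sample title; the prefix of the columns KD1 to KD3 differs from that of the knockdown titles, so they were assigned to that group only and their numbers were not used.

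Whole reads per gene and library were worked back from FPKM with the help of the base means: of 97302 values, 100% lay within 0.01 of an integer. The lowest base mean was 1.14, and genes below it are not analysed here. Depth differed little between libraries and limits mainly the 19 low members, which are given as reads; these carry counting error and the spread between libraries.

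Genes averaging at least 1 FPKM were fitted on log2(FPKM + 1) in R 4.3.3 by limma 3.58.1 (variance trend on intensity, group as the lone term, two-sided), with Benjamini-Hochberg adjustment over 10296 genes and a threshold of 0.05. Such fold changes understate the change of low genes, and ratios are of mean FPKM. For each tested gene named, 14 alternatives were run: a pseudocount of 0.1, no filter, a filter at a mean of 10 reads, voom on recovered reads, other scalings, library weights, the authors' deposited q-value and leaving out each library. Leaving out each library in the unfiltered fit of Abca1, which fewer alternatives cover, was added after seeing the data. On simulated data with 10301 tested genes and 50 changed genes per fold, limma called 78% of those changed 1.25-fold, 96% at 1.5-fold and 100% at 2-fold or 4-fold, with 13 false calls among 200; a library as distant as KD3 was not simulated.

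The members and gene lists were chosen with earlier results of these data known. Values are given in full for called members, the 10 most abundant and a list of known transporters, and from each pathway list up to 4 called genes are named. Some genes that these rules pick are counted but not reported here by name. Sequences were aligned with Biopython 1.88.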

Additional observations from a re-analysis of the deposited data

How the results depend on the processing

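Of the 10 called transporter genes, 9 stayed called in the same direction under all 14 alternatives; the exception, Abcd4, is given above. The number of members that fell lay between 8 and 12 under every alternative. The number that rose was 2 with no filter on low values, with the filter on reads and by the authors' q-value, in each case by the addition of Abca1, and 6 with library weights, where KD3 had a weight of 0.135 and KD2 one of 4.54. Over all genes, 2289 rose and 1930 fell with library weights, and leaving out 1 library gave 482 to 1521 risen and 460 to 1332 fallen genes, the most without KD3. Of the pathway genes, 18 rose and 35 fell with library weights, and 4 to 13 rose and 10 to 29 fell on leaving out 1 library. Direction turned in some genes that were not called. With library weights the log2 fold change was 0.0119 for Abcc1, 0.0567 for Abcf1 and -0.0113 for Slc10a3. On leaving out 1 library it ran from -0.048 to 0.0452 for Abcc1 (above 0 without KD3 or shNC replicate 3), from -0.0863 to 0.0222 for Abcf1 (above 0 without KD3), from -0.00903 to 0.0984 for Slc10a7 (below 0 without KD3) and from -0.016 to 0.112 for Slco5a1 (below 0 without KD1 or KD2). The causes were not tested. No paired analysis was possible because the knockdown columns, KD1 to KD3, carry another prefix than the sample titles and could not be matched to single titles by name, so their numbers were not taken as replicate numbers. With 1 library left out of a group, the fit rests on 5 libraries. Depth leaves the members with few reads without a usable fold change.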

Other observations

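Other genes of the prostaglandin pathway, chosen after their values were seen, were read beside the prostaglandin carrier Slco2a1. Ptgs2, the inducible cyclooxygenase that makes the precursor of prostaglandins, read 49.9, 51.4 and 50.1 FPKM in shNC and 103, 101 and 101 FPKM in KD1, KD2 and KD3. It was higher in all knockdown libraries, with a log2 fold change of 0.99 (SE 0.0393, limma adjusted p = 9.24e-06), and was called under all 14 alternatives. Ptgs1, the constitutive form, had means of 29.8 and 27.4 FPKM (limma adjusted p = 0.158). The prostaglandin E synthases did not pass: Ptges had means of 3.01 and 3.69 FPKM (limma adjusted p = 0.221), Ptges2 10.9 and 10.9 FPKM (limma adjusted p = 0.986) and Ptges3 97.4 and 109 FPKM (limma adjusted p = 0.0781). Hpgd, the enzyme that breaks prostaglandins down, was near 0 in both groups, at 0.0400 and 0.00489 FPKM. Of the prostaglandin E receptors, Ptger1 had means of 0.114 and 0.0861 FPKM and Ptger4 of 0.0676 and 0.00766 FPKM. Other prostaglandin E receptors are not described here. Secreted prostaglandin was not measured here.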
